A study of Mus musculus with 58 samples.

Results

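Forestomach gene expression at the highest dose of the polycyclic aromatic hydrocarbon indenopyrene (IP, the 1,2,3-cd isomer), 50 mg/kg-bw/day, was compared with that of vehicle mice. The arrays were chosen by their titles and comprise 5 mice at this dose and 4 vehicle mice, that is 9 of the 58 arrays of the series. All mice were Muta™Mouse males, a transgenic strain that carries a lacZ reporter for mutations, aged about 13 weeks. IP dissolved in olive oil, or olive oil alone, was given daily by gavage for 28 days, and tissues were collected 72 hours after the final dose. RNA was extracted from random sections of each forestomach, labelled with Cy5 and hybridized against a Cy3-labelled universal reference RNA of mouse cells, so every value below is a log2 ratio of the forestomach to that reference, and differences between groups are differences of these log2 ratios. The array carried 55681 probes, of which 26413 had a gene name, for 20018 genes. Where a gene had several probes, the brightest one is given. The groups at 12.5 mg/kg-bw/day and at 25 mg/kg-bw/day, each of 5 mice, entered the same model and are cited only beside results for 50 mg/kg-bw/day. Vehicle mice carried the label numbers 1, 2, 3 and 5 and exposed mice the numbers 16 to 20. Nothing in the sources used here says more about how the animals of a group were related, so the p-values measure the spread between these mice.

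The mouse forestomach is a keratinized squamous pouch that is continuous with the glandular stomach, whose mucous, parietal and chief cells secrete mucus, acid and digestive enzymes. It is a site of first contact for compounds given by gavage. Polycyclic aromatic hydrocarbons bind the aryl hydrocarbon receptor (AhR), which induces cytochrome P450 enzymes of the Cyp1 family, and their reactive products can form DNA adducts that activate p53.

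All arrays of a dose occupied the same array column, and the effects of dose and array column cannot be told apart. Both groups were present on 4 of the 5 slides. The slide of mouse 18 held no vehicle array. On the array of this mouse, 85.9% of the probes had a Cy5 signal well above background, against 43.0 to 55.6% on the other 8 arrays, so a detected signal means less for mouse 18 than for the others. In bulk tissue, fewer cells of a type and less RNA per cell cannot be told apart.

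Across all genes, no probe passed the test, set at a limma adjusted p of 0.05 with at least a 1.5-fold difference (0% of 55681 probes, smallest limma adjusted p = 0.900). An unadjusted p under 0.05 was found for 2164 of the 55681 probes. This is a smaller share than the 0.05 that chance alone would give. A looser threshold, at least a 1.2-fold difference with an unadjusted p under 0.05, served to describe the data and not as a test. It was reached by 1019 probes (1.83%), of which 556 were higher and 463 lower in exposed mice (0.999% and 0.832%). Over genes, 529 reached it (2.64%), 340 higher (1.7%) and 189 lower (0.944%). Among the 12921 genes well above background on all arrays of a group, 242 were higher (1.87%) and 173 lower (1.34%). The median log2 fold change of all genes was 0.01. Among genes above background that reached the looser threshold without overlap between groups, the 5 largest differences to higher values were those of spermatid genes and the largest to lower values was that of the chaperone gene Dnaja1. Glandular stomach transcripts differed between mice by far more than between groups.

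Markers of the glandular stomach were abundant in some mice of both groups and near the reference level in others. The lists comprised 14 markers of surface mucous cells, 4 of mucous neck cells, 10 of parietal cells and 7 of chief cells. Their mean log2 ratio was 0.25 in vehicle mouse 1, against 4.73, 4.47 and 4.62 in vehicle mice 2, 3 and 5. In the exposed group it was 0.54, 0.53, 2.65, 4.80 and 4.51 in mice 16 to 20. Thus 1 of 4 vehicle mice and 2 of 5 exposed mice had low values, mouse 18 was intermediate and the other mice were high, so the groups overlapped. The lower doses showed a like spread, from 0.23 in mouse 9 to 5.23 in mouse 6 at 12.5 mg/kg-bw/day and from 0.31 in mouse 12 to 4.80 in mouse 15 at 25 mg/kg-bw/day.

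Single markers varied in the same way. Cblif, the gastric intrinsic factor gene, had log2 ratios of 0.24, 8.64, 8.69 and 8.71 in vehicle mice 1, 2, 3 and 5. It had 0.35, 1.45, 6.13, 8.66 and 8.36 in mice 16 to 20. Cblif was therefore at the reference level in vehicle mouse 1 and in exposed mouse 16, and at its highest in 3 vehicle and 2 exposed mice. Atp4a, the catalytic subunit of the parietal cell proton pump, had 0.02, 6.45, 6.82 and 6.67 in the vehicle mice and 0.18, 0.02, 4.19, 6.91 and 6.54 in the exposed mice. Gkn2, a gastrokine of surface mucous cells, had 0.99, 8.28, 8.30 and 8.27 in the vehicle mice. It had 3.84, 2.36, 7.43, 8.51 and 8.54 in the exposed mice, so that a partial signal remained in mice 16 and 17. In lung, Gkn2 ranged from -0.15 to 0.39 over 20 arrays and in liver from -0.06 to 0.11 over 19 arrays. This is the level of this probe without stomach tissue. Of the 35 gastric markers, however, 14 were above background on all 20 lung arrays and 3 on all 19 liver arrays. These tissues therefore give no level without signal for the whole list.

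**Figure D1:**
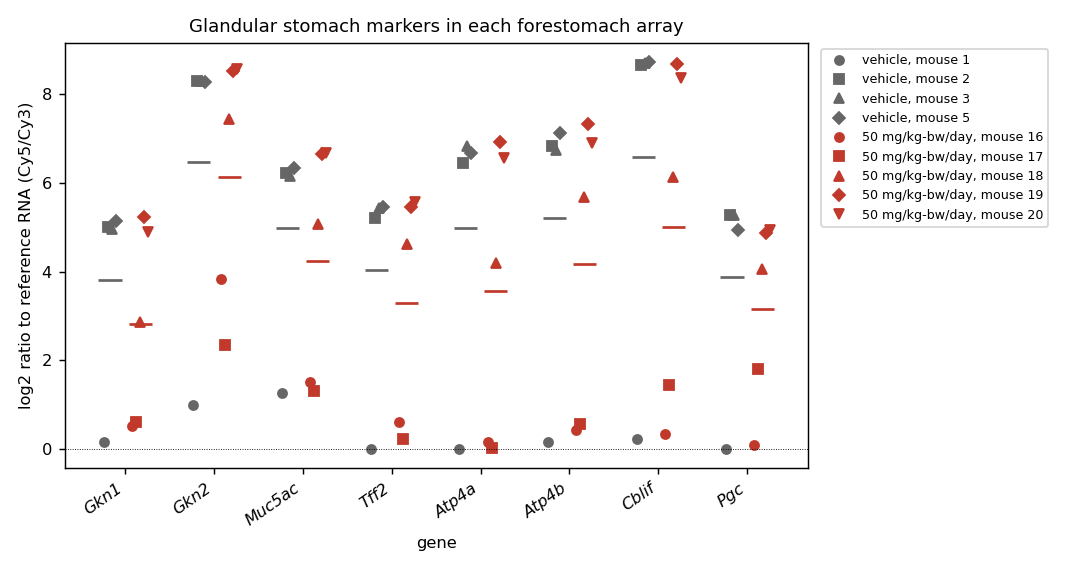
Log2 ratio to the reference RNA (vertical axis) of 8 glandular stomach markers (horizontal axis) in each forestomach array, with vehicle mice in grey, mice at 50 mg/kg-bw/day in red, 1 symbol per mouse and short lines at the group means. Vehicle mouse 1 and exposed mice 16 and 17 sit low for Atp4a, at 0.02, 0.18 and 0.02, whereas the other vehicle mice reach 6.45 to 6.82.

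The gastric lists had low medians, and no marker passed the test. The median log2 fold change was -0.78 for surface mucous markers, -0.47 for neck cell markers, -0.85 for parietal markers and -1.21 for chief cell markers, against 0.01 over all genes. Of the 35 markers, 1 surface mucous marker was higher and 34 markers were lower in exposed mice. One of them, Slc26a7, an anion transporter of parietal cells, reached the looser threshold (-0.63, SE 0.27), as did 0.944% of all genes in this direction. Every interval of the 3 markers described above included 0, as in Cblif (-1.58, 95% interval -7.00 to 3.84) and Gkn2 (-0.32, -4.27 to 3.63). The median over the 4 lists was -0.81 with all mice, -2.14 without vehicle mouse 1 and -0.38 without mouse 17. It moved by more than 1.5 times without vehicle mouse 1, 2 or 5 or without mouse 16, 17, 19 or 20. The surface mucous, neck and parietal lists held 9, 2 and 5 markers well above background on all arrays of a group, and the chief cell list held 0. Some digestive enzymes listed as markers of exocrine pancreas varied with the gastric markers. Clps, the pancreatic lipase cofactor colipase, had 2.14, 7.85, 8.02 and 7.86 in vehicle mice and 2.17, 4.33, 6.21, 8.00 and 8.16 in exposed mice. Try4, a trypsin, had -0.42, 5.71, 6.05 and 5.84 in vehicle mice and -0.35, -0.46, 0.58, 4.76 and 3.37 in exposed mice. The defining pancreatic enzymes Pnlip and Cpa1 stayed near the reference level in all 9 mice and differed by 0.03 and 0.03. Of the 14 genes of that list, 10 were lower, with a median of -0.49. Cel, the bile salt-dependent lipase, reached the looser threshold (-0.56, SE 0.16), which is 7.14% of the list, against 0.944% of all genes.

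**Figure D2:**
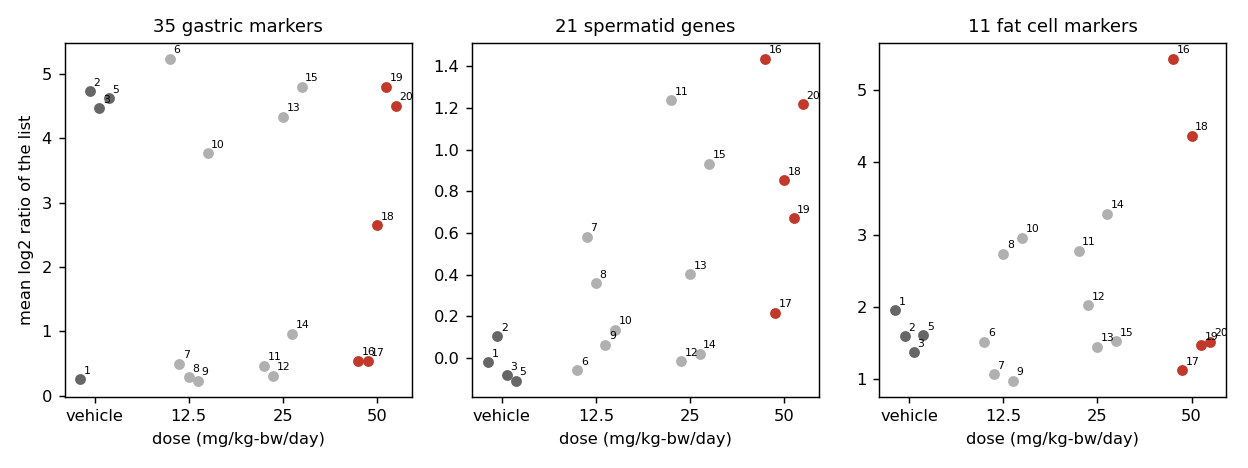
Mean log2 ratio (vertical axes) of 35 gastric markers, 21 spermatid genes and 11 fat cell markers in each forestomach array by dose in mg/kg-bw/day, labelled with mouse numbers. Every group holds mice with high and with low gastric markers, the spermatid mean lies between -0.11 and 0.11 with vehicle and from 0.22 to 1.44 at the highest dose, and the fat markers are highest in mice 16 and 18, at 5.44 and 4.37.

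The squamous epithelium that defines the forestomach was present in all mice, and its lists had medians close to that of all genes. The 23 markers of keratinized epithelium had a median log2 fold change of 0.00, with 12 higher, 11 lower and 0 past the looser threshold. The 10 basal markers also had a median of 0.00. Krt5, a keratin of basal cells, had 3.61 ± 0.29 in vehicle mice (SD, n = 4) and 3.62 ± 0.06 in exposed mice (SD, n = 5), a difference of 0.02 (95% interval -0.27 to 0.31). Krt13, a keratin of the suprabasal layers, differed by -0.01 (-0.57 to 0.56). Krt6a, a keratin induced in stressed and hyperproliferative epithelium, had 3.08, 3.13, 3.32 and 3.35 in vehicle mice and 0.26, 0.35, 1.03, 3.67 and 2.73 in exposed mice. It was low in mice 16, 17 and 18 and within or near the vehicle range in mice 19 and 20, with a difference of -1.61 (95% interval -3.31 to 0.08).

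Genes of spermatids were higher in the forestomach of exposed mice. Of 21 such genes on the array, 20 had higher and 1 had lower means, 11 reached the looser threshold (52.4%, against 1.7% of all genes) and 8 did not overlap between groups (1.17% of all genes were so). The list median was 0.41. Prm1, Prm2, Ldhc and Adam32 also belong to a list that the study chose on these samples, so their direction is not independent evidence. Of the 21 genes, 2, Prm1 and Odf2, had a signal well above background in all vehicle mice. Another 8 passed that filter solely through the exposed mice, and the values over genes that passed are therefore not used.

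Protamines and transition proteins, small basic proteins that replace histones in the condensing sperm nucleus, were together with Ldhc the 5 genes with the largest differences of the list. Prm1 (protamine 1, GRCm38.p6 chr16:10796332-10796823) had log2 ratios of -0.03, 0.85, 0.35 and 0.05 in vehicle mice 1, 2, 3 and 5. It had 4.92, 1.08, 3.45, 3.46 and 4.29 in mice 16 to 20, a difference of 3.13 (SE 0.85, limma adjusted p = 1.00). All exposed mice were above all vehicle mice, with mouse 17 only slightly above vehicle mouse 2, which shared its slide. Prm2 (chr16:10791377-10792105) had -0.68, 0.05, -1.01 and -1.04 in vehicle mice and 3.48, 0.36, 2.20, 2.01 and 3.38 in exposed mice, a difference of 2.96 (SE 0.73). The transition protein genes differed by 2.32 for Tnp1 (SE 0.65) and 2.52 for Tnp2 (SE 0.71), again without overlap and with the lowest exposed value in mouse 17. Prm1, Prm2 and Tnp2 lie within one cluster on chromosome 16, whereas Tnp1 lies on chromosome 1.

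**Figure D3:**
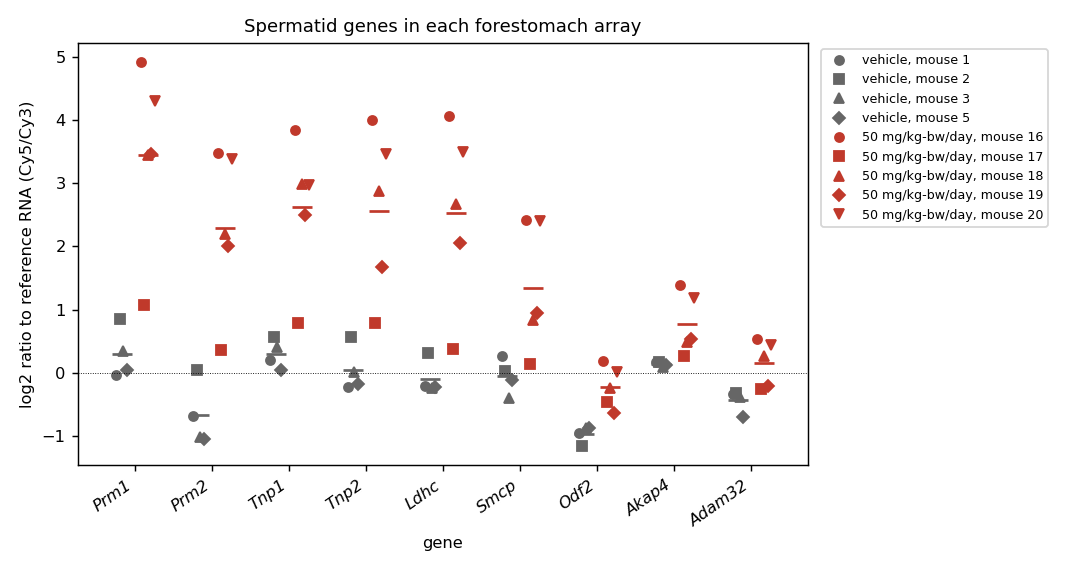
Log2 ratio to the reference RNA (vertical axis) of 9 spermatid genes (horizontal axis) in each forestomach array, with vehicle mice in grey, mice at 50 mg/kg-bw/day in red, 1 symbol per mouse and short lines at the group means. For Prm1 the exposed mice lie between 1.08 and 4.92 and the vehicle mice between -0.03 and 0.85, and mouse 17 is the lowest exposed mouse for most of the genes.

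Genes of sperm metabolism and of the flagellum were also higher. Ldhc, the lactate dehydrogenase of germ cells, had -0.20, 0.32, -0.25 and -0.23 in vehicle mice and 4.06, 0.38, 2.67, 2.05 and 3.49 in exposed mice. Its signal was well above background in 0 of 4 vehicle and 5 of 5 exposed mice. It was therefore at least 3.92-fold higher, where the bound sets the mean Cy5 signal of the exposed mice (after loess and Aquantile scaling) against the dimmest signal called above background on each vehicle array, or the probe's own signal where that was higher. Such a bound is open to dye bias, because the dyes were not swapped. A dimmer Ldhc probe differed by 0.66. Smcp, which encodes a mitochondrial capsule protein of sperm, was above background in 0 vehicle and 4 exposed mice and was at least 2.26-fold higher. Odf2, a component of outer dense fibres, differed by 0.73 (SE 0.19) and Akap4, the main protein of the fibrous sheath, by 0.63 (SE 0.21). Adam32, a sperm protein of the ADAM family, differed by 0.59 (SE 0.16), and each of these genes was without overlap. A further Adam32 probe showed no such difference (-0.03). At the other end of the list, Odf1, Crisp2 and Acrv1 were at the background level in most mice and differed by 0.05, 0.03 and 0.00.

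Prm1 varied between mice at the lower doses too. At 25 mg/kg-bw/day, Prm1 had 5.31, 0.47, 1.95, 0.62 and 3.56 in mice 11 to 15. At 12.5 mg/kg-bw/day it had 0.46, 2.69, 1.78, 1.23 and 0.53 in mice 6 to 10. Values above the vehicle range, which ended at 0.85, therefore occurred in some mice of each exposed group. Within the 4 slides that held both groups, Prm1 was higher in the exposed mouse by 4.94, 0.22, 3.41 and 3.95. In lung, Prm1 ranged from -0.48 to 0.41 over 20 arrays and differed by -0.07 between the groups at 50 mg/kg-bw/day, and in liver it ranged from -0.29 to 0.71 over 19 arrays and differed by 0.08. At 50 mg/kg-bw/day, mice 16 and 20 had the highest mean over the spermatid genes (1.44 and 1.22), with gastric means of 0.54 and 4.51. With the gastric mean as a covariate, 11 spermatid genes again reached the looser threshold. The source of the spermatid transcripts was not tested.

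The sequence upstream of the 4 protamine and transition protein genes and of Ldhc is shown because they had the largest differences and lie on 3 chromosomes. Below are the 150 bases before each transcription start from RefSeq (GRCm38.p6), 5′ to 3′ on the strand of the gene. Capitals mark matches to the letters TGANGTCA or, on the other strand, TGACNTCA, variants of the cAMP response element, the type of site that the germ cell activator CREM is known to bind.
Prm1 (chr16:10796824-10796973, minus strand): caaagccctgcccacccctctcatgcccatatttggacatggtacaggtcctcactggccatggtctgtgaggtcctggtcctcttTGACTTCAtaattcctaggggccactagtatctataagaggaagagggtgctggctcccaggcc
Prm2 (chr16:10792106-10792255, minus strand): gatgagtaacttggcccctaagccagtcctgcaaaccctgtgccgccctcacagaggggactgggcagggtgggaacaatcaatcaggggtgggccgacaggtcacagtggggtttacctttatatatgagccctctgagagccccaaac
Tnp1 (chr1:73015900-73016049, minus strand): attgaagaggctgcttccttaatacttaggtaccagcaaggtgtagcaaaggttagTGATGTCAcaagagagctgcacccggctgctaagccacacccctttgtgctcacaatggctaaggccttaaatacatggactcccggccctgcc
Tnp2 (chr16:10788656-10788805, minus strand): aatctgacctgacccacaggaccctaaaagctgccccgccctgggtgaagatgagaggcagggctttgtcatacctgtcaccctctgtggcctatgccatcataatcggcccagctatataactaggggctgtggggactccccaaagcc
Ldhc (chr7:46861113-46861262, plus strand): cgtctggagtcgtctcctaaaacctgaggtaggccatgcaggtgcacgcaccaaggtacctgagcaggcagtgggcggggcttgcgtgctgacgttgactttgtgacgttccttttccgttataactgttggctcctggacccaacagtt
Prm1 and Tnp1 held 1 match each, and the printed stretches of Prm2, Tnp2 and Ldhc held none with these letters. Over the 250 bases before the start, 5 of 18 spermatid genes with a RefSeq window held a match (27.8%), against 8.55% of 27025 genes.

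Chaperone genes of the heat shock response were lower in exposed mice. These proteins refold or hold unfolded proteins and are induced by the transcription factor HSF1. All 15 on the array had lower means, 7 reached the looser threshold (46.7%, against 0.944% of all genes) and 2, Dnaja1 and Hspa8, did not overlap between groups (0.624% of all genes were so). All 15 were well above background in every vehicle mouse. The list median was -0.42. With arrays centred on their median in place of loess, the median of all genes moved to 0.22. The list median was then -0.01 and 0 of the 15 reached the threshold. The list thus lay below the median of all genes with either normalization, but by less with median-centring, and the count past the threshold depended on the normalization.

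Dnaja1, a co-chaperone of Hsp70, had the largest difference of the list and the third lowest p of all probes. It had log2 ratios of 0.39, 0.99, -0.19 and -0.03 in vehicle mice 1, 2, 3 and 5 and -1.11, -1.07, -1.31, -0.58 and -0.73 in mice 16 to 20, a difference of -1.25 (SE 0.24, limma adjusted p = 0.900). All exposed mice were below all vehicle mice. A dimmer probe of the gene differed by -0.37, and the gene is on the list that the study chose on these samples. Hspa1a, the stress-inducible Hsp70, whose near-identical copy Hspa1b may share the probe's signal, had 4.43, 4.42, 2.86 and 3.31 in vehicle mice and 3.00, 3.42, 1.62, 2.33 and 2.40 in exposed mice (difference -1.20, SE 0.44). Hsph1, a nucleotide exchange factor of Hsp70, had 1.56, 2.01, 0.22 and 0.70 in vehicle mice and 0.30, 0.56, -0.71, -0.18 and -0.27 in exposed mice (difference -1.18, SE 0.34). Vehicle mice 1 and 2 were the highest for these genes and mouse 17 was the highest exposed mouse for both Hspa1a and Hsph1, and the groups overlapped for both.

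**Figure D4:**
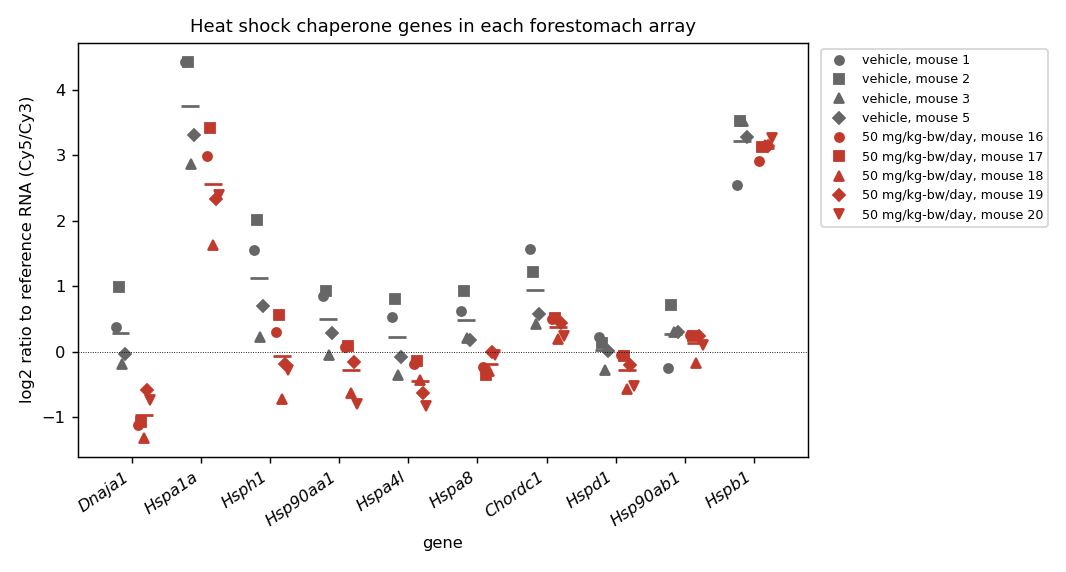
Log2 ratio to the reference RNA (vertical axis) of 10 heat shock chaperone genes (horizontal axis) in each forestomach array, with vehicle mice in grey, mice at 50 mg/kg-bw/day in red, 1 symbol per mouse and short lines at the group means. For Dnaja1 the vehicle mice lie between -0.19 and 0.99 and the exposed mice between -1.31 and -0.58, whereas Hspb1 and Hsp90ab1 overlap almost fully.

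The within-slide differences of Dnaja1 were -1.50, -2.06, -0.55 and -0.54, and those of Hsph1 -1.26, -1.44, -0.88 and -0.50. On each slide that held both groups, the exposed mouse was thus below the vehicle mouse for both genes. Hsp90aa1, the inducible cytosolic Hsp90, differed by -0.79 (SE 0.24), Hspa4l, of the Hsp110 family, by -0.67 (SE 0.22), Hspa8, the constitutive Hsc70, by -0.67 (SE 0.20) and Chordc1, an Hsp90 co-chaperone, by -0.56 (SE 0.18). The other Hspa8 probes differed by a like amount. Hspb1, a small heat shock protein, and Hsp90ab1, the constitutive Hsp90, differed by only -0.10 (SE 0.19) and -0.13 (SE 0.28). The mean of the list was 1.06, 1.19, 0.49 and 0.65 in vehicle mice and 0.38, 0.54, 0.08, 0.28 and 0.21 in exposed mice. At 25 mg/kg-bw/day it was between 0.25 and 0.62, and at 12.5 mg/kg-bw/day between 0.11 and 0.73, so the 2 vehicle mice at 1.06 and 1.19 were the highest of all 19 mice.

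The stretches before the starts of the 3 chaperone genes with the largest differences are shown with the heat shock element, the inverted repeat that HSF1 binds. Capitals mark the letters GAANNTTC or TTCNNGAA, each of which reads the same on both strands.
Hspa1a (chr17:34972157-34972306, minus strand): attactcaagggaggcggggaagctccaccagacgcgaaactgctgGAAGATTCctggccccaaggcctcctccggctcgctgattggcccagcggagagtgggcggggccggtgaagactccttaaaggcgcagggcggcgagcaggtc
Hsph1 (chr5:149636316-149636465, minus strand): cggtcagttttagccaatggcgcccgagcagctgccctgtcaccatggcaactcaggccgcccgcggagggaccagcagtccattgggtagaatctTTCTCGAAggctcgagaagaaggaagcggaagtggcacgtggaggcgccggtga
Dnaja1 (chr4:40722318-40722467, plus strand): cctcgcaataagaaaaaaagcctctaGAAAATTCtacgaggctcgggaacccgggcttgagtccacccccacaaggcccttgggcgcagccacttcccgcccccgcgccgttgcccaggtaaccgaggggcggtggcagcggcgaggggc
Of 12 chaperone genes with a window, 7 held a match within 250 bases (58.3%), against 14.5% of 27025 genes. Ldhc, Hsph1 and Dnaja1 have more than 1 transcription start in RefSeq, and 1 is shown for each. It is the start with the most matches in the 250 bases before it, so the match itself decided the choice. The stretch shown for Hsph1 lies inside the annotated gene, which ends at 149636498.

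Beside Dnaja1 and Hspa8, the 10 largest differences to lower values without overlap included those of Hspa5 and Creld2. Hspa5 (BiP), the main chaperone of the endoplasmic reticulum, had 0.50, 0.91, 0.47 and 0.50 in vehicle mice and -0.07, 0.06, -0.47, 0.20 and -0.08 in exposed mice (difference -0.67, SE 0.19). Creld2, a gene induced by unfolded proteins, differed by -0.66 (SE 0.22). The groups did not overlap for either gene. The other genes with the largest differences to lower values were those of Kitl, Pcp4, Gadd45g, Dynll1, H2ac4 and Optc. Kitl, the ligand of the Kit receptor and also on the study's list, had 0.78, 0.74, 0.45 and 0.92 in vehicle mice and -0.14, -0.74, -0.39, 0.29 and -0.31 in exposed mice (difference -0.98, SE 0.24). Pcp4, a calmodulin-binding peptide of neurons, differed by -0.97 (SE 0.39) and Gadd45g, a stress-responsive gene, by -0.73 (SE 0.28). Dynll1, a dynein light chain, differed by -0.72 (SE 0.25) and Optc, an extracellular matrix proteoglycan, by -0.67 (SE 0.31). The histone gene H2ac4 differed by -0.69 (SE 0.23) and belongs to a family of near-identical genes that a probe may not separate.

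Outside the spermatid list, Gm3448 (1.62, SE 0.47) and Tuba3a (0.92, SE 0.25) had the largest differences to higher values without overlap. Tuba3a is an alpha-tubulin gene with near-identical copies. Next came Plin5, which coats lipid droplets of oxidative tissues (0.88, SE 0.27), Acss2, which makes acetyl-CoA from acetate (0.83, SE 0.18), and 4933411K16Rik (0.81, SE 0.24). Among mice at the lower doses, Gm3448 and 4933411K16Rik were highest in mice 7, 11 and 15, as was Prm1. Gm3448 had -1.46, -1.29, -1.70 and -1.54 in vehicle mice and 0.67, -1.10, 0.79, -0.31 and 0.56 in exposed mice, so that mouse 17 was again the lowest. Acss2 was high in mice 16 and 18 (2.57 and 2.45) and between 1.62 and 1.77 in the other exposed mice, and a dimmer probe of the gene differed by 0.44. Mice 16 and 18 were those with strong fat cell markers, and without them, an alternative chosen after seeing the data, Acss2 differed by 0.51 and Plin5 by 0.37. The part of fat tissue in these differences was not tested.

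Of the remaining genes on the list that the study chose on these samples, Srsf5, a splicing factor of the SR family, had -0.73, -1.04, -0.84 and -0.51 in vehicle mice and 0.10, 0.35, -0.50, -0.16 and -0.07 in exposed mice (0.73, SE 0.18). Kdm1b, a histone lysine demethylase, was lower without overlap (-0.50, SE 0.11), with within-slide differences of -0.66, -0.39, -0.39 and -0.49. Syt1, a calcium sensor of synaptic vesicles, differed by -0.91 (SE 0.38) and overlapped between groups. The 5 probes with the lowest p included Dnaja1 and a dimmer probe of Slco3a1, an organic anion transporter (-0.44, SE 0.09). The brighter Slco3a1 probe differed by -0.21. The others of the 5 had no gene name here and differed by -0.40, 0.61 and 0.36. The first of these is a probe of the array design at mm9 chr4:141100989-141106639. The smallest adjusted p among them was 0.900 by limma.

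Of 12 genes of the AhR pathway, 7 had higher and 5 lower means. Only 1 of them, Cyp1a1, was higher past the looser threshold (8.33%, against 1.7% of all genes). Cyp1a1, the classical AhR target, had 0.09, -0.25, 0.16 and 0.01 in vehicle mice, in none of which it was above background. In mice 16 to 20 it had 2.53, 0.97, 1.24, 0.04 and 0.40 and was above background in 3. Mice 16, 17, 18 and 20 were above the vehicle range and mouse 19 was within it. The log2 fold change was 1.03 (SE 0.36, two-sided exact permutation p = 0.0476, not adjusted, over 126 splits of the mice with a smallest possible value of 0.0159). By the bound used for Ldhc, Cyp1a1 was at least 1.61-fold higher. Mice 16, 17 and 18 also had low or intermediate gastric markers, but mouse 20 had high ones. Vehicle mouse 1, with low gastric markers, had a Cyp1a1 ratio of 0.09. The highest Cyp1a1 values were in mice 16 and 18, which also had strong fat cell markers, and without these 2 mice the difference was 0.47 (SE 0.27). The part of glandular or fat tissue in this difference was not tested. Ahrr, the AhR repressor, differed by 0.40 (SE 0.20, two-sided exact permutation p = 0.0317, not adjusted). For Cyp1b1, a further AhR target, the difference was 0.25 (SE 0.25, exact permutation p = 0.429). In all, 3 genes were tested in this way. Nqo1, Tiparp and Ahr itself differed by 0.11 (95% interval -0.52 to 0.73), -0.04 (-0.35 to 0.27) and 0.00 (-0.29 to 0.29), and the median of the 12 genes of the pathway was 0.03.

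Among 28 p53 targets, 16 had higher and 12 lower means, with a median of 0.02. Bbc3, the pro-apoptotic Puma, and Ephx1, which is also a xenobiotic epoxide hydrolase, reached the looser threshold (0.47, SE 0.18, and 0.34, SE 0.16). These were 7.14% of the list, against 1.7% of all genes higher past it. Cdkn1a, the p21 cell cycle inhibitor, differed by 0.01 (95% interval -0.22 to 0.24) and Mdm2 by -0.09 (-0.30 to 0.12). Of 29 cell cycle and mitosis genes, 26 had lower means, with a median of -0.17 and 0 past the looser threshold. With median-centring in place of loess this median was 0.19, near the 0.22 of all genes. The 27 DNA repair and checkpoint genes had a median of 0.05. The 20 NRF2 and glutathione genes, which protect against electrophiles, had a median of 0.08. Gstm1 (0.66, SE 0.31) and Me1 (0.37, SE 0.14) were higher past the looser threshold (10%, against 1.7% of all genes). Both were among 3 members that were higher without overlap, as were 1.17% of all genes.

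**Figure D5:**
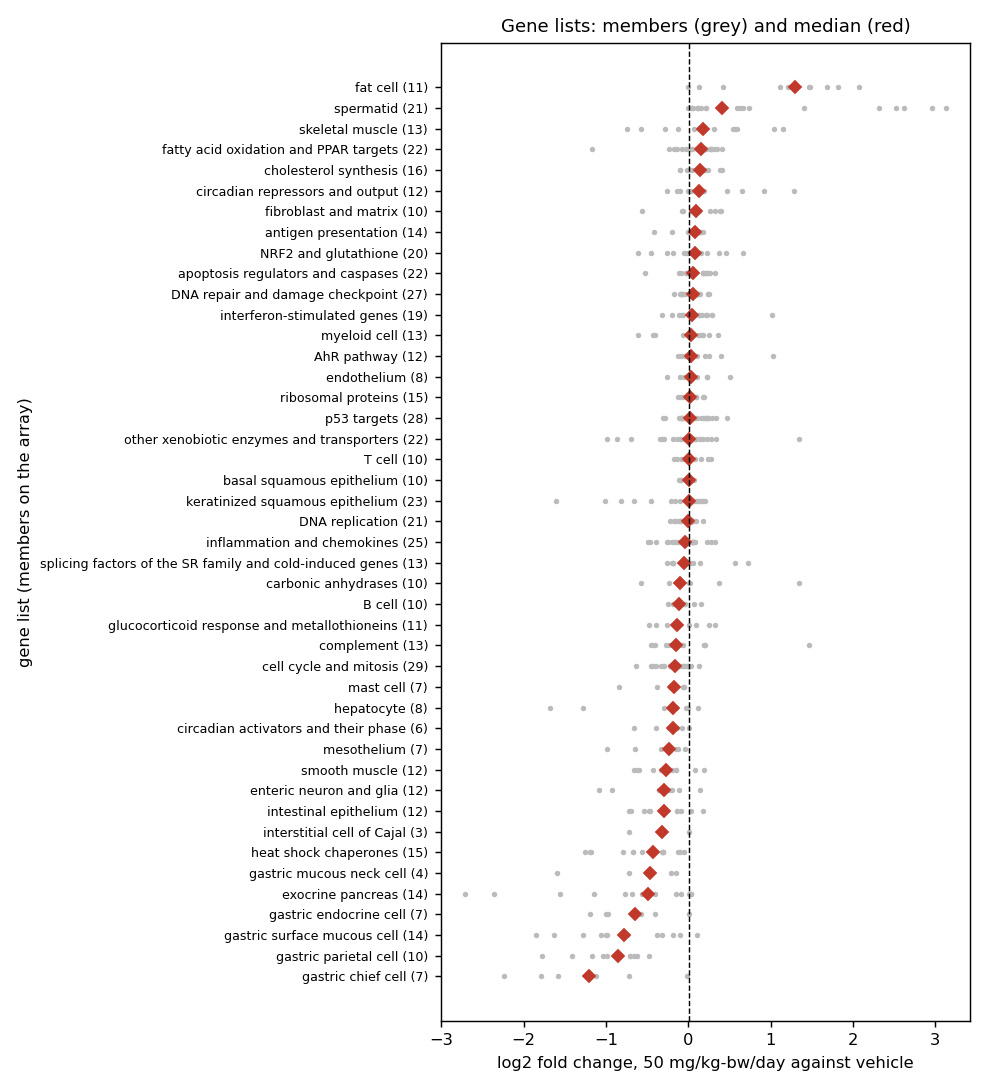
Log2 fold change at 50 mg/kg-bw/day against vehicle (horizontal axis) of the members (grey points) and the median (red diamonds) of each gene list other than the one the study chose, with the number of members on the array. The dashed line marks the median of all genes, 0.01, and the lists at the ends are fat cell (1.29), spermatid (0.41) and the gastric lists (down to -1.21).

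Markers of tissues next to the stomach differed between single mice. Fat cell markers had a median log2 fold change of 1.29 over 11 genes. Of these, 1, Fabp4, reached the looser threshold (1.11, SE 0.43), which is 9.09%, against 1.7% of all genes. Adipoq, the adipocyte hormone adiponectin, had 1.96, 0.19, 0.07 and 0.12 in vehicle mice and 6.25, 0.02, 5.19, -0.07 and -0.01 in exposed mice, so mice 16 and 18 alone carried a strong fat signal. Without these 2 mice, the median of the list was -0.14, Fabp4 differed by 0.49, Bbc3 by 0.29 and Pcp4 by -0.63, and 9 spermatid genes and 7 chaperone genes still reached the looser threshold. Mouse 20 had a spermatid mean of 1.22 with a fat mean of 1.52. The part of fat tissue in the spermatid differences was not tested.

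Most markers of smooth muscle and of enteric nerves had lower means, against 52.4% of all genes with higher means. Of 12 smooth muscle genes, 10 had lower means (median -0.27, but 0.15 with median-centring, where that of all genes was 0.22). Tagln and Actg2, both of the contractile apparatus, were lower past the looser threshold (-0.60, SE 0.23, and -0.66, SE 0.31). They were 16.7% of the list, against 0.944% of all genes. Of 12 markers of enteric neurons and glia, 11 had lower means (median -0.30). Vip, a neuropeptide, and S100b, a glial calcium-binding protein, were lower past the same threshold (-1.09, SE 0.39, and -0.93, SE 0.31), again 16.7% of the list. Without mice 16 and 18, Vip differed by -0.57. Of 13 skeletal muscle markers, 9 had higher means (median 0.17), and their mean was 3.06 in mouse 18 against 0.17 to 0.91 in the other 8 mice. The part of the amount of muscle wall in the sections of each mouse was not tested.

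Some genes of the circadian clock, whose transcripts vary with the time of day, also differed. Of 12 repressor and output genes, 9 had higher means. Dbp, Nr1d1 and Nr1d2 were higher past the looser threshold (1.28, SE 0.46, 0.92, SE 0.33, and 0.65, SE 0.28). They were 25% of that list, against 1.7% of all genes. Nfil3, a repressor that cycles in opposite phase to Dbp, was lower past it (-0.66, SE 0.21), as were 0.944% of all genes. The groups overlapped for each of the 4 genes. The time of day at which each mouse was sampled is not given in the sources used here. Dbp had -3.09, -1.71, -2.33 and -2.80 in vehicle mice and -0.42, -1.91, -1.13, -1.79 and -0.75 in exposed mice. Per1, Per2 and Cry2 differed by -0.26, -0.10 and 0.19, and the median of the list was 0.13.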

How the data were processed

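Gene expression was measured in forestomach RNA on 2-colour Agilent arrays. Per the file headers, the spot intensity values of the forestomach and lung arrays came from Agilent Feature Extraction 10.7.3.1, and those of the liver arrays from 11.0.1.1, run by the authors on their scans. The log10 ratios of Cy5 over Cy3 in the same files, which include background subtraction, were made by that software, per the file headers. The authors also deposited log2 ratios normalized by LOWESS. They had a Pearson r of 0.9966 to 0.9994 with the values computed here and served as an alternative.

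Here, log2(Cy5/Cy3) was taken over the median signals of a spot, with no background subtracted. Control spots and spots marked as outliers were left out, each array was loess-normalized, and replicate spots were averaged. The 19 forestomach arrays were fitted in 1 model of 4 groups with limma 3.58.1 in R 4.3.3, with Benjamini-Hochberg adjustment over 55681 probes. Single AhR genes were tested by exact permutation. Names came from RefSeq through the probes' accessions. The precision is limited by the number of arrays. The test was checked on simulated data.

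Lists are described over all members on the array and over those with a Cy5 signal well above background on all arrays of 1 group where that is said. Named are the 10 genes with the largest difference in each direction past the looser threshold, above background and without overlap, list members past that threshold (at most 4) with defining members, the genes the study lists for IP in forestomach, and the 5 probes of lowest p. Other members of a list that are named were chosen after their values were seen. The members and lists were chosen with earlier results of these data known. Alternatives were normexp with an offset of 50, median-centring, Aquantile, Cy5 alone, the scanner's log ratio, the deposited ratios, 2 groups alone, dim probes left out, slide as a fixed block, outlier spots kept, trend and robust, the gastric mean as a covariate, gene names and each mouse left out. Leaving out mice 16 and 18, or vehicle mouse 1 with mice 16 and 17, was added after seeing the data. Lung and liver arrays served only to give the level of single genes without stomach tissue.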

Additional observations from a re-analysis of the deposited data

Results flagged for a closer look

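Across 28 measures in both groups, that is 56 sets of values, 4 sets had 1 mouse far from the others of its group by Dixon's criterion, which chance alone meets in about 1 in 20 groups. The gastric mean of vehicle mouse 1 was 0.25, against 4.47 to 4.73 in the other vehicle mice (gap over range 0.941). Ldhc in vehicle mouse 2 was 0.32, against -0.25 to -0.20 (0.924). Hspa5 in vehicle mouse 2 was 0.91, against 0.47 to 0.50 (0.924). Creld2 in mouse 18 was -1.69, against -1.16 to -0.98 in the other exposed mice (0.746).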

How the results depend on the processing

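No probe passed an adjusted p of 0.05 with a fold change of 1.5 under any of the 24 alternatives, and the smallest adjusted p, computed for 23 of them, was between 0.485 and 1. Against 556 higher and 463 lower probes past the looser threshold, 369 were higher with Cy5 alone, 307 were higher with dim probes left out, 340 genes were higher and 189 lower when gene names replaced probes, 1335 were higher and 802 lower with the scanner software's log ratio, 762 were lower with the gastric mean as a covariate, and 807 were lower with median-centring, where 533 were higher. The share of higher probes was 54.6% with loess, 39.8% with median-centring and 62.5% with the scanner's ratio. Leaving out single mice gave 480 to 779 higher and 380 to 744 lower probes, the latter without vehicle mouse 1. Without vehicle mouse 1 and mice 16 and 17, 630 were higher and 658 lower. Of 15 chaperone genes, 0 were past the looser threshold with median-centring and 6 to 10 under the other alternatives. Of 21 spermatid genes, 8 to 12 were. The median of the gastric lists was between -2.14 and -0.24, and of single mice left out, between -2.14 and -0.38. The median moved by over 1.5 times without any 1 of vehicle mice 1, 2 and 5 and mice 16, 17, 19 and 20. With median-centring, 11 of 45 list medians turned from lower to higher. The 24 genes named for their size or from the study's list kept their direction under every alternative that gave a value. All of them except Syt1 were without overlap between groups, so leaving out mice could not have changed their direction. None passed an adjusted p of 0.05. No paired analysis was possible because the groups share no mouse number. With the slide as a block, 564 probes were higher and 466 lower. With 4 and 5 mice and a median SE of 0.16 among genes above background, small differences could not be told from the spread between mice.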
